A study of Mus musculus with 123 samples.

Results

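The lungs of 8 ovalbumin-sensitized BALB/c mice were compared with those of 8 naive BALB/c mice at 168 h after challenge, 16 arrays of a series of 8 time points whose other groups hold 107 arrays. The sensitized arm holds every animal labelled as sensitized at that hour, and the naive arm every animal labelled naive. Ovalbumin (OVA), an egg protein, serves as the model allergen. The design text gives the OVA challenge to both arms, yet the naive titles contain the letters PBS, so antigen and buffer cannot be told apart for the naive mice. The labels name no transgene or deletion, and each array carries an animal number of its own. Age, sex, sensitization schedule and challenge route were not given. The 16 lungs at 0 h (8 sensitized and 8 naive) and the 15 at 96 h (8 sensitized and 7 naive) place the differences in time, and whether 0 h precedes the challenge is not stated.

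In sensitized mice, T helper cells that recognise the allergen release type 2 cytokines when it is met again. Interleukin-13 acts on airway epithelium, where secretory cells become mucus-producing goblet cells, and on macrophages and dendritic cells, which release chemokines that draw in eosinophils and lymphocytes. B cells that met the allergen become plasma cells, which enlarge the endoplasmic reticulum to fold and secrete antibody, and some of them persist in tissue after the inflammation subsides.

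Each value is the log2 of an array signal summarised by RMA, with 1 probe set for each of 13053 genes, and a difference of 1 on this scale is a factor of 2. The number of arrays limits the precision. Whole lung was sampled, so more cells of a type and more RNA per cell cannot be told apart. Values near 5 lie at the bottom of the scale, where no detection calls were available. Array medians were 9.37 to 9.43 over the 16 lungs. Alveolar type II and surfactant genes averaged 13.46 to 13.52 in sensitized lungs and 13.41 to 13.49 in naive lungs, so every mouse carried the defining markers of lung. Naive replicate 4 stood apart. Its collagen genes averaged 12.44, against 11.48 to 11.76 in the other naive mice, its acute inflammatory genes 10.12, against 8.91 to 9.37, and its cardiac muscle markers 8.64, against 10.80 to 11.98. Sensitized replicate 6 had the lowest value of its arm for 141 of the 444 genes called higher, among them 14 of the 15 with the highest differences. As a gauge of RNA integrity, the log2 value of the 3′ probe set of actin minus that of its 5′ probe set was 1.5 ± 0.17 in sensitized lungs and 1.21 ± 0.23 in naive lungs (SD, n = 8 each). That difference of 0.29 passed an exact two-sided permutation test (p = 0.012). A fit with this gap as a covariate was added after the data were seen, and its value is given where it ends a call.

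At 168 h the arms differed in 628 of 13053 genes (4.81%) at an adjusted p below 0.05, by limma fitted on all arrays of the series with Benjamini-Hochberg adjustment over all genes. A ± after a difference, rise, fall or change is limma's standard error, which draws on the spread within all 16 groups of arm and time. Of these, 444 (3.4%) were higher and 184 (1.41%) lower in sensitized lungs, and the median difference over all genes was 0.01. The shares of 3.4% and 1.41% are the background for each count of list members at 168 h. With each array centred on its median the split was 386 higher and 303 lower, and with quantile normalization 359 higher and 270 lower. Large differences lay almost wholly on one side. A difference of at least 1 was seen in 47 genes upward (0.36%) and in 2 genes downward (0.0153%), Apold1 and Nr4a1. Every sensitized mouse lay above every naive mouse for 50 genes (0.383%) and below for 15 genes (0.115%). The number called was 409 with sensitized replicate 1 left out and 364 with naive replicate 1 left out. Below, list counts with a mouse left out are given only for naive replicate 4 and sensitized replicate 6. How far they fall without sensitized replicate 1 or naive replicate 1 is not shown. None of the 12 skeletal muscle, 12 cardiac muscle, 13 squamous epithelium and 9 adipocyte markers passed limma's test, nor did any at an unadjusted p below 0.05. No cardiac muscle or adipocyte difference lay above 0, with medians of -0.24 and -0.54, or -0.62 and -0.72 without naive replicate 4. Cardiac muscle markers averaged 9.27 in sensitized replicate 5, where the median of its arm was 11.25. The part of heart or fat tissue in the differences was not tested.

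Goblet cell and mucus genes were the list with the most members called. Of 25 measured members 18 rose and none fell, beside the 3.4% of all genes called higher, with a median difference of 1.30. The number that rose was 17 without naive replicate 4, 18 without sensitized replicate 6 and 14 with the actin covariate. Clca1, a secreted protease that goblet cells release with mucus, had a lowest, median and highest value of 10.66, 13.50 and 13.79 in sensitized lungs, against 4.99, 5.37 and 5.82 in naive lungs. The arms lay far apart, and the lowest sensitized mouse was replicate 6, with the next at 12.92. The difference was 7.77 ± 0.58 (adjusted p = 6.28e-21), and 8.13 without sensitized replicate 6. All naive values of Clca1 lay near the bottom of the scale, so no fold is given.

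The gel-forming mucins differed less. Muc5b, the mucin of the resting airway, had 11.37, 11.96 and 12.25 in sensitized lungs, against 9.32, 10.41 and 10.79 in naive lungs. The arms did not overlap, and the difference was 1.51 ± 0.32 (adjusted p = 0.00115). Muc5ac, the mucin made in allergic airways, had 7.54, 8.71 and 9.19 in sensitized lungs, against 6.90, 7.26 and 7.58 in naive lungs. All sensitized mice but replicate 6 were above the naive range. Muc5ac rose by 1.38 ± 0.31 (adjusted p = 0.00265).

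Enzymes and partners of mucin assembly rose with them. Gcnt3, which branches the sugars of mucins, had 5.48, 8.48 and 9.45 in sensitized lungs, against 4.68, 5.01 and 5.45 in naive lungs. No value overlapped, though sensitized replicate 6 lay just above the highest naive mouse and the next sensitized mouse was at 7.83. The difference was 3.14 ± 0.29 (adjusted p = 2e-15). Agr2, a disulfide isomerase that mucin folding needs, rose by 1.89 ± 0.41 (adjusted p = 0.00146). Fcgbp, a mucus protein that binds antibody tails, rose by 2.06 ± 0.25 (adjusted p = 4.34e-10) with no overlap. Tff2, a trefoil peptide of mucus, rose by 1.30 ± 0.34 (adjusted p = 0.0105) and did not pass with the actin covariate (adjusted p = 0.0619). Bpifb1, a secreted airway defence protein, rose by 1.79 ± 0.44 (adjusted p = 0.00666). Scin, an actin-severing protein, was 6.48 to 10.21 in sensitized lungs and 5.95 to 6.41 in naive lungs, with a difference of 2.96 ± 0.36 (adjusted p = 9.28e-10). Foxa3 and Spdef, transcription factors of goblet cell differentiation, did not overlap between arms. Foxa3 rose by 0.87 ± 0.18 (adjusted p = 0.00085) and Spdef by 0.66 ± 0.17 (adjusted p = 0.0102), the call of Spdef being lost with the actin covariate (adjusted p = 0.0632). Pigr, the receptor that carries dimeric antibody across epithelium, was 11.05 to 12.14 in sensitized lungs and 10.06 to 10.50 in naive lungs, a rise of 1.52 ± 0.20 (adjusted p = 9.67e-09).

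**Figure D1:**
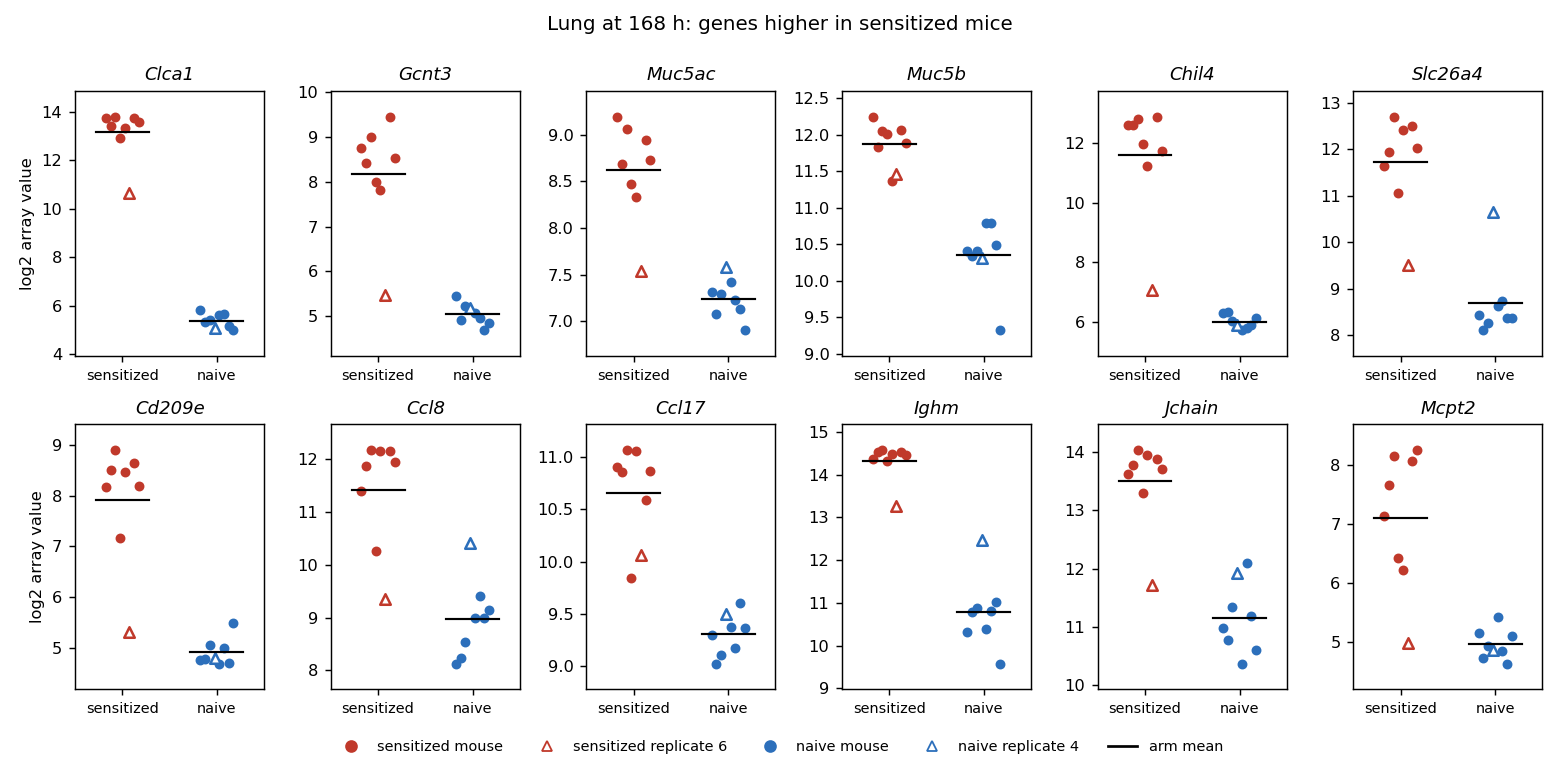
Log2 array value of 12 genes in each mouse at 168 h, sensitized mice left and naive mice right in each panel, with the arm mean as a line and sensitized replicate 6 and naive replicate 4 as open triangles. Clca1 keeps the arms far apart, from 10.66 upward in sensitized mice against 5.82 and below in naive mice, and sensitized replicate 6 is the lowest of its arm in 10 of the 12 panels.

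Of 15 ion transport genes of the airway surface 3 rose, beside 3.4% of all genes, with a list median of 0.11. Slc26a4, the anion exchanger pendrin, had 9.51, 11.99 and 12.69 in sensitized lungs, against 8.10, 8.41 and 10.65 in naive lungs. Naive replicate 4 alone reached into the sensitized range, the next naive value being 8.73. The difference was 3.03 ± 0.47 (adjusted p = 1.95e-06), and 3.31 without that mouse. Kcne3, a potassium channel subunit of secretory epithelium, rose by 0.84 ± 0.18 (adjusted p = 0.00178). Fxyd4, a regulator of the sodium pump, rose by 1.63 ± 0.46 (adjusted p = 0.0216), a call lost without any 1 of sensitized replicate 3 and naive replicate 1 (adjusted p = 0.0532 to 0.0622).

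The chitinase family gave 4 genes that rose of 7 measured, beside 3.4% of all genes. Chil4, a chitinase-like protein of epithelium and macrophages in type 2 inflammation, had 7.07, 12.28 and 12.87 in sensitized lungs, against 5.73, 5.98 and 6.36 in naive lungs. The arms did not overlap, but sensitized replicate 6 stood far below the next sensitized mouse at 11.21. The difference was 5.58 ± 0.66 (adjusted p = 1.84e-10) and 6.23 without that mouse. Chil3, its close relative in macrophages, rose by 1.34 ± 0.16 (adjusted p = 4.34e-10), and probes of this pair may share signal. Chia1, the acidic mammalian chitinase, rose by 1.2 ± 0.16 (adjusted p = 1.98e-08). Chil1, a chitinase-like protein of macrophages and epithelium, rose by 0.21 ± 0.06 (adjusted p = 0.0122). With the 16 arrays alone in the fit, Chil1 (adjusted p = 0.0959) did not pass.

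Other lists of airway and alveolar epithelium gave fewer calls than the goblet cell list. Of 21 motile cilia genes 4 rose, beside 3.4% of all genes, with a median of 0.26. Ccno, a cyclin of multiciliated cell maturation, rose by 0.51 ± 0.12 (adjusted p = 0.00421) with no overlap, and Dnah9, a dynein heavy chain of the ciliary arm, by 0.47 ± 0.12 (adjusted p = 0.012). With the actin covariate no cilia gene passed (adjusted p = 0.0507 for Ccno and 0.573 for Dnah9). Lypd2 was the 1 gene that rose of 14 on the club cell and airway secretory list, by 0.97 ± 0.22 (adjusted p = 0.00232), and did not pass with the covariate (adjusted p = 0.0897). Of 13 alveolar type II and surfactant genes 2 rose and 1, Pon1, fell. Pon1, a secreted esterase, fell by 0.95 ± 0.27 (adjusted p = 0.0185), a call lost without sensitized replicate 3 (adjusted p = 0.056). No alveolar type I marker of 15 passed (2 at an unadjusted p below 0.05), with a median of -0.05.

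Genes of antibody-secreting cells rose as well, beside the 3.4% of all genes called higher. Of 21 listed immunoglobulin chain genes only 3 were measured, Ighm, Igha and Iglv1, so most of that list was not assessed. All 3 rose, with a median difference of 1.66, as did 12 of 19 plasma cell genes, with a median of 0.37. The number of plasma cell genes that rose was 12 without naive replicate 4, 13 without sensitized replicate 6 and 11 with the actin covariate. Ighm, the heavy chain of immunoglobulin M, had 13.27, 14.46 and 14.57 in sensitized lungs, against 9.58, 10.80 and 12.47 in naive lungs. No value overlapped, and the nearest naive mouse was replicate 4, with the next at 11.02. The difference was 3.53 ± 0.50 (adjusted p = 1.22e-07), and 3 further probe sets of the gene differed by 3.83 to 4.72. Igha, the heavy chain of the mucosal antibody immunoglobulin A, had 12.56, 14.17 and 14.44 in sensitized lungs, against 12.05, 12.22 and 12.53 in naive lungs. All sensitized mice were above all naive mice, and the rise was 1.66 ± 0.17 (adjusted p = 2.19e-13).

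Jchain, which joins immunoglobulin A and M into polymers, had 11.72, 13.74 and 14.04 in sensitized lungs, against 10.36, 11.08 and 12.10 in naive lungs. Sensitized replicate 6 lay inside the naive range, and the other sensitized mice were at 13.30 or above. The rise was 2.34 ± 0.26 (adjusted p = 8.52e-12). Igkv15-103 and Igkv14-111, kappa light chain variable segments, rose by 2.47 ± 0.50 (adjusted p = 0.000583) and 2.34 ± 0.40 (adjusted p = 1.83e-05). Igkv15-103 was 8.27 to 12.95 in sensitized lungs and 7.47 to 9.13 in naive lungs, so single sensitized mice differed widely. Iglv1, a lambda variable segment, rose by 0.99 ± 0.22 (adjusted p = 0.00197). Variable segments resemble one another, so these probes may share signal. The call was lost in the fit of the 16 arrays alone for Iglv1 (adjusted p = 0.0922).

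Other genes of the plasma cell programme moved the same way. Tnfrsf17, the survival receptor BCMA, had 6.53, 8.17 and 9.07 in sensitized lungs, against 6.65, 6.94 and 7.09 in naive lungs. Sensitized replicate 6 was the lowest of all 16 mice, and the other sensitized mice lay above the naive range. The difference was 1.19 ± 0.18 (adjusted p = 7.59e-07). Derl3, a channel component that removes misfolded proteins from the endoplasmic reticulum, had 8.32, 9.44 and 10.67 in sensitized lungs, against 7.40, 7.63 and 8.08 in naive lungs. The arms did not overlap, and the rise was 1.88 ± 0.21 (adjusted p = 6.05e-11). Mzb1, a cofactor of immunoglobulin M secretion, rose by 1.86 ± 0.26 (adjusted p = 1.26e-07), Slamf7, a surface receptor of plasma cells, by 0.98 ± 0.15 (adjusted p = 3e-06), and Eaf2, a partner of transcription elongation factors, by 2.14 ± 0.27 (adjusted p = 1.43e-09). Xbp1, the transcription factor that enlarges the secretory apparatus, rose by 0.24 ± 0.07 (adjusted p = 0.0362), a call lost without any 1 of sensitized replicates 1, 2 and 3 and naive replicates 1, 3, 4 and 5 (adjusted p = 0.0528 to 0.0999) and with the actin covariate (adjusted p = 0.0619). Irf4, which plasma cells and dendritic cells both need, rose by 0.82 ± 0.23 (adjusted p = 0.0178), against 0.40 by another probe set, a call lost without any 1 of sensitized replicates 3 and 5 (adjusted p = 0.0547 to 0.0678). No B cell marker of 15 passed (2 at an unadjusted p below 0.05), with a median of -0.10, and no germinal centre or class switch gene of 9 (2 unadjusted). Fitted on the 16 arrays alone, Irf4 (adjusted p = 0.094) did not pass.

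Of 20 chaperones and quality-control proteins of the endoplasmic reticulum 9 rose, beside 3.4% of all genes, with a median of 0.21. The number was 8 without naive replicate 4, 9 without sensitized replicate 6 and 13 with the actin covariate. Edem1, Creld2, Pdia4 and Herpud1 are also on the plasma cell list, so the counts of these lists share members. Edem1, which sends misfolded glycoproteins to degradation, rose by 0.85 ± 0.17 (adjusted p = 0.000417), with a second probe set at 0.29. Creld2, a folding factor induced by protein load, rose by 0.62 ± 0.12 (adjusted p = 0.000347), and Syvn1, the ubiquitin ligase of the degradation route, by 0.37 ± 0.07 (adjusted p = 0.000147). Manf, a secreted factor of the same response, rose by 0.43 ± 0.12 (adjusted p = 0.0214) and lost its call without any 1 of sensitized replicate 1 and naive replicates 2 and 3 (adjusted p = 0.0547 to 0.0696). Pdia4, a disulfide isomerase, rose by 0.41 ± 0.12 (adjusted p = 0.0278) and lost it without any 1 of sensitized replicates 3 and 5 and naive replicates 1, 2 and 3 (adjusted p = 0.0577 to 0.0702). Herpud1, of the degradation route, rose by 0.32 ± 0.09 (adjusted p = 0.0246) and lost it without any 1 of sensitized replicate 1 and naive replicates 1, 2 and 3 (adjusted p = 0.0559 to 0.112) and with the actin covariate (adjusted p = 0.203). Hspa5, the chaperone BiP, differed by 0.20 ± 0.07 and did not pass (adjusted p = 0.0624). With the 16 arrays alone in the fit, Herpud1 (adjusted p = 0.154) did not pass.

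The promoters of Derl3, Creld2 and Syvn1 are shown because they hold the endoplasmic reticulum stress response element, the letters CCAAT and CCACG with 9 bases of any kind between them. It was searched on both strands in windows of 250 bases before to 50 after the start site. These are the 3 of 342 genes called higher, among those with a window, that hold it, against 39 of 32851 windows of all genes (0.119%). It was found in 7 of 18 chaperone genes with a window, of which Creld2 and Syvn1 were called, and in none of 14 goblet cell genes. The sequences are RefSeq's on GRCm38.p6, 5′ to 3′ on the strand of the gene, with the element in capitals; it lies on the opposite strand in Derl3 and Creld2. A match describes letters in a window. The windows are chr10:75893148-75893447 on the plus strand for Derl3, chr15:88819396-88819695 on the plus strand for Creld2 and chr19:6046326-6046625 on the plus strand for Syvn1.
Derl3: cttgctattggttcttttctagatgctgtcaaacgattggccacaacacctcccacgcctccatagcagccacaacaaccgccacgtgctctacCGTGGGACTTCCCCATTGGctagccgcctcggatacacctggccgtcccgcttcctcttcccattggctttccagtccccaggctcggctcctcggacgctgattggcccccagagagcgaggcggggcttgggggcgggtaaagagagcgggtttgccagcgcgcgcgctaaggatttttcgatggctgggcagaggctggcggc
Creld2: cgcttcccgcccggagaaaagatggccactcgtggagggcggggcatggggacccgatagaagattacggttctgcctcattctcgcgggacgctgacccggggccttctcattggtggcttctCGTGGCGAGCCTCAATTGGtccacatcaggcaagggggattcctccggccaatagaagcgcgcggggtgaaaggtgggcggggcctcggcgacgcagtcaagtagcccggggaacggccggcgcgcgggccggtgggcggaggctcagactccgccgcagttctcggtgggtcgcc
Syvn1: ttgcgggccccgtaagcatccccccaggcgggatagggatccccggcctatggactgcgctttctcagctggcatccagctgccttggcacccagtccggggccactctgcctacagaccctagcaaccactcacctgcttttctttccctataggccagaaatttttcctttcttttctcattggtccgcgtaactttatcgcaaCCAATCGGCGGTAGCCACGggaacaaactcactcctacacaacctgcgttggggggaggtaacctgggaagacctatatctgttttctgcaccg

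Of 9 CC chemokines of allergic inflammation 4 rose, beside 3.4% of all genes, with a median difference of 0.75. The number was 5 without naive replicate 4, 4 without sensitized replicate 6 and 6 with the actin covariate. Ccl8, a ligand that draws type 2 helper cells and monocytes, had 9.35, 11.92 and 12.18 in sensitized lungs, against 8.13, 9.0 and 10.42 in naive lungs. The highest naive mouse, replicate 4, overlapped the lower sensitized mice, and the next naive mouse was at 9.4. The difference was 2.44 ± 0.37 (adjusted p = 7.67e-07). Ccl17, which recruits type 2 helper cells through CCR4, had 9.84, 10.86 and 11.07 in sensitized lungs, against 9.02, 9.33 and 9.60 in naive lungs. No value overlapped, and the rise was 1.35 ± 0.32 (adjusted p = 0.00468).

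Ccl20, the ligand for CCR6 on dendritic cells and lymphocytes, rose by 0.96 ± 0.25 (adjusted p = 0.00943) with no overlap. Ccl9, a chemokine of macrophages, rose by 0.70 ± 0.18 (adjusted p = 0.0107), and did not pass with the mean of both probe sets (adjusted p = 0.0653). The eotaxins, which attract eosinophils, did not pass: Ccl11 differed by 0.67 ± 0.36 (adjusted p = 0.3) and Ccl24 by -0.42 ± 0.34 (adjusted p = 0.547). Il13, the cytokine that drives goblet cells, had 6.33, 7.11 and 7.64 in sensitized lungs, against 6.27, 6.43 and 6.99 in naive lungs. The arms overlapped through sensitized replicate 6 and naive replicate 8 among others, and the difference of 0.64 ± 0.32 did not pass (adjusted p = 0.258). Il4, its sister cytokine, differed by 0.19 ± 0.37 (adjusted p = 0.835). Il17rb, the receptor for the epithelial cytokine interleukin-25, was the 1 gene that rose of 13 on the type 2 cytokine and receptor list, by 0.54 ± 0.10 (adjusted p = 6.06e-05).

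Dendritic cell markers rose in 9 of 20 cases and none fell, beside 3.4% and 1.41% of all genes, with a median of 0.29. The count was 6 higher and 1 lower without naive replicate 4. Cd209e, a C-type lectin of the DC-SIGN family, had 5.31, 8.33 and 8.90 in sensitized lungs, against 4.68, 4.79 and 5.49 in naive lungs. Sensitized replicate 6 was within the naive range, and the other sensitized mice were above it. The difference was 3.01 ± 0.44 (adjusted p = 4.19e-07).

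Neighbouring genes of that family on chromosome 8 moved apart. Cd209d rose by 0.77 ± 0.17 (adjusted p = 0.00135) and Cd209a by 0.54 ± 0.17 (adjusted p = 0.0413), while Cd209f fell by 0.82 ± 0.24 (adjusted p = 0.0246) and Cd209g by 0.75 ± 0.21 (adjusted p = 0.0167). In chromosome order these genes are Cd209a, Cd209e, Cd209d, Cd209f and Cd209g, the ones that rose before the ones that fell; other members were not considered. Cd209a lost its call without any 1 of sensitized replicates 1, 2, 3, 5, 7 and 8 and naive replicates 2, 3, 4, 5 and 7 (adjusted p = 0.0504 to 0.0908), and Cd209f without any 1 of sensitized replicates 1 and 4 and naive replicate 6 (adjusted p = 0.054 to 0.0731). With the actin covariate neither Cd209f (adjusted p = 0.143) nor Cd209g (adjusted p = 0.171) passed. Members of this family resemble one another, so probes may share signal.

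Itgax, the integrin CD11c of dendritic cells and lung macrophages, rose by 0.78 ± 0.17 (adjusted p = 0.00183), Mgl2, a lectin of type 2 dendritic cells, by 0.74 ± 0.20 (adjusted p = 0.0171), and Cd207, the lectin langerin, by 0.68 ± 0.13 (adjusted p = 0.000167). Flt3, a growth factor receptor of dendritic cells, rose by 0.27 ± 0.08 (adjusted p = 0.0336), a call lost without any 1 of sensitized replicates 2, 3, 5 and 7 and naive replicates 3, 4 and 7 (adjusted p = 0.0559 to 0.0954). Zbtb46, a transcription factor of conventional dendritic cells, rose by 0.26 ± 0.08 (adjusted p = 0.0405), against 0.10 by another probe set, a call lost without any 1 of sensitized replicates 1, 2, 3 and 4 and naive replicates 2, 4 and 5 (adjusted p = 0.0556 to 0.194) and with the actin covariate (adjusted p = 0.219). Of 9 class II presentation genes 3 rose. The class II chains H2-Aa and H2-Ab1 rose by 0.21 ± 0.06 (adjusted p = 0.0108) and 0.26 ± 0.06 (adjusted p = 0.00192), with another H2-Aa probe set at 0.09, and Ctss, the protease that prepares class II for peptide, by 0.23 ± 0.06 (adjusted p = 0.0164), a call lost without any 1 of sensitized replicate 3 and naive replicate 1 (adjusted p = 0.0545 to 0.0591). No class I presentation gene of 13 passed (1 at an unadjusted p below 0.05). The call was lost in the fit of the 16 arrays alone for Cd207 (adjusted p = 0.0531), Flt3 (adjusted p = 0.124), Zbtb46 (adjusted p = 0.229), H2-Aa (adjusted p = 0.0553) and Ctss (adjusted p = 0.168).

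The spaced element of STAT6, the transcription factor of interleukin-4 and interleukin-13 signalling, was found in 3 of 15 dendritic cell genes with a window. These were Cd209e, Ccl17 and Itgax, all called higher, and the promoters of Ccl17 and Cd209e are shown. The letters searched were TTC and GAA with 4 bases of any kind between them, which read the same on both strands. The element was found in 2284 of 32851 windows (6.95%), which are not limited to genes tested here. It was found in 23 of 342 genes called higher (6.73%) and in 10 of 139 called lower (7.19%). The windows, from RefSeq on GRCm38.p6 with the element in capitals, are chr8:94810203-94810502 on the plus strand for Ccl17 and chr8:3854237-3854536 on the minus strand for Cd209e.
Ccl17: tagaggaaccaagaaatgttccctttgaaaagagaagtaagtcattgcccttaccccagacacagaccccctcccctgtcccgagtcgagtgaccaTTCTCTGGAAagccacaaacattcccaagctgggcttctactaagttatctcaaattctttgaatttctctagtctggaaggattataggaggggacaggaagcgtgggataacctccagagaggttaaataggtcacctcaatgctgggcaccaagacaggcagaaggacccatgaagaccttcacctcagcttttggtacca
Cd209e: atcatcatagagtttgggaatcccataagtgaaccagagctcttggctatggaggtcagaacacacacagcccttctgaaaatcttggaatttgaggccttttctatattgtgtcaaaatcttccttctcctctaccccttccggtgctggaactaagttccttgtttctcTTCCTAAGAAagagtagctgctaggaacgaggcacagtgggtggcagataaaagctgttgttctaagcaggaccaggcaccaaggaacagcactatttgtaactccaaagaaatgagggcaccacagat

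Few macrophage markers passed, beside the 3.4% of all genes called higher and 1.41% called lower. Of 18 alveolar macrophage markers 2 rose, Chil3 and Itgax, and 1 fell, Krt19 (difference -0.22, adjusted p = 0.0171). With naive replicate 4 left out 5 rose and 1 fell, and with the actin covariate 5 rose and 0 fell. Mmp12, the elastase of activated macrophages, had 10.61, 11.90 and 12.47 in sensitized lungs, against 8.65, 9.38 and 12.75 in naive lungs. Naive replicate 4 was the highest of all 16 mice and the next naive mouse was at 9.55, below every sensitized mouse. The difference was 2.13 ± 0.40 (adjusted p = 0.000145) and 2.58 without that naive mouse. AA467197 had the same layout, with 7.50, 9.99 and 10.56 in sensitized lungs, against 6.48, 6.81 and 10.90 in naive lungs and naive replicate 4 the highest. Its difference was 2.44 ± 0.44 (adjusted p = 6.68e-05) and 2.95 without that mouse.

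C1qb, a complement subunit made by macrophages, rose by 0.48 ± 0.11 (adjusted p = 0.00467), while C5ar1, the receptor for complement C5a, fell by 0.48 ± 0.11 (adjusted p = 0.00473) and did not pass with the actin covariate (adjusted p = 0.141). Of 14 genes that interleukin-4 and interleukin-13 induce in macrophages 4 rose, with a median of 0.44: Chil3, Cd209e, Mgl2 and Irf4. Monocyte and interstitial macrophage markers gave 2 that rose and 1 that fell of 21, 8 that rose with the actin covariate, and 7 that rose without naive replicate 4, in which they averaged 11.52, against 10.66 to 10.85 in the other naive mice. Fitted on the 16 arrays alone, C1qb (adjusted p = 0.0709) did not pass.

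Granulocyte genes that rose were few. Mcpt2, a protease of mucosal mast cells, had 4.98, 7.40 and 8.26 in sensitized lungs, against 4.63, 4.90 and 5.42 in naive lungs. All sensitized mice but replicate 6 lay above the naive range. The difference was 2.16 ± 0.37 (adjusted p = 2.88e-05), the 1 gene that rose of 16 on the mast cell and basophil list. Cpa3, a mast cell carboxypeptidase, differed by 0.10 ± 0.18 (adjusted p = 0.815).

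Of 8 eosinophil genes 2 rose, beside 3.4% of all genes. Prg2, the major basic protein of the granule, rose by 0.99 ± 0.28 (adjusted p = 0.0219) with no overlap, and lost its call without any 1 of sensitized replicates 1 and 7 and naive replicate 1 (adjusted p = 0.0501 to 0.055). Ccr3, the eotaxin receptor, had 4.75, 5.64 and 8.10 in sensitized lungs, against 4.43, 4.78 and 5.23 in naive lungs. The highest sensitized value was replicate 8, and the lower sensitized mice overlapped the naive ones. It rose by 1.44 ± 0.39 (adjusted p = 0.0159) and lost its call without any 1 of sensitized replicates 7 and 8 (adjusted p = 0.0577 to 0.0607). Mmp9, a gelatinase stored in neutrophils, fell by 0.90 ± 0.24 (adjusted p = 0.0159), the 1 called gene of 14 neutrophil markers, and lost its call without sensitized replicate 1 (adjusted p = 0.0533) and with the actin covariate (adjusted p = 0.131). With the 16 arrays alone in the fit, Ccr3 (adjusted p = 0.0914) did not pass.

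Few lymphocyte markers passed the test, beside the 3.4% of all genes called higher. Of 24 T cell markers 1 rose: Pdcd1, the inhibitory receptor PD-1 of activated T cells, which had 6.47, 7.04 and 7.33 in sensitized lungs, against 6.00, 6.13 and 6.45 in naive lungs. All sensitized mice were above all naive mice, and the difference was 0.83 ± 0.21 (adjusted p = 0.00879). Cxcr6, a homing receptor of T cells resident in tissue, rose by 0.88 ± 0.18 (adjusted p = 0.000678), 1 of 15 residency and homing genes. None of 16 natural killer and cytotoxic cell markers and none of 27 interferon-stimulated genes passed, and the unadjusted p was below 0.05 for none of the first list and for 3 of the other. Of 14 checkpoint genes 2 rose, beside 3.4% of all genes. Vtcn1, an inhibitory ligand, rose by 0.49 ± 0.11 (adjusted p = 0.00183) and did not pass with the actin covariate (adjusted p = 0.103). Cd200r1, an inhibitory receptor of myeloid cells, rose by 0.58 ± 0.17 (adjusted p = 0.0293) and lost its call without any 1 of sensitized replicates 3, 5, 7 and 8 and naive replicates 1, 2 and 5 (adjusted p = 0.0518 to 0.0844). The call was lost in the fit of the 16 arrays alone for Cd200r1 (adjusted p = 0.153).

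**Figure D2:**
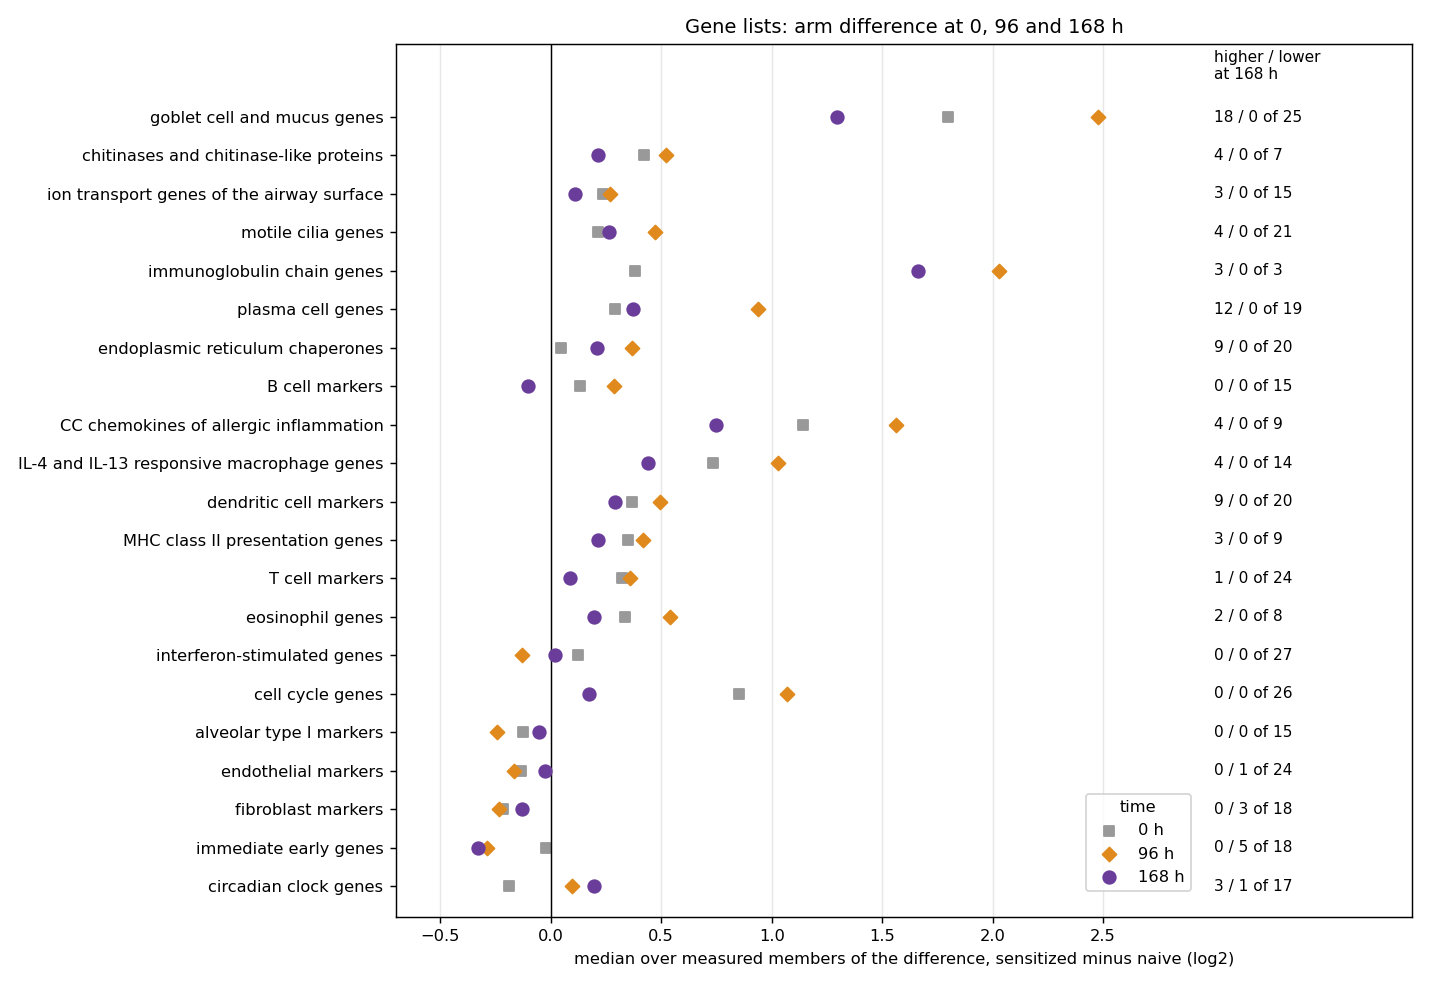
Median over the measured members of each gene list of the difference, sensitized minus naive, in log2 units (horizontal) at 0, 96 and 168 h, with the numbers called higher and lower at 168 h at the right. At 168 h the goblet cell, immunoglobulin and CC chemokine lists are at 1.30, 1.66 and 0.75, while the cell cycle list, at 0.85 at 0 h and 1.07 at 96 h, is at 0.17.

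Genes that fell at 168 h were fewer and differed by less. Apold1, an endothelial regulator of vessel function, had 8.75, 8.95 and 9.13 in sensitized lungs, against 9.25, 9.91 and 12.08 in naive lungs. The arms did not overlap, and naive replicate 4 was far above the next naive mouse at 9.97. The fall was 1.16 ± 0.19 (adjusted p = 8.28e-06), with a difference of -0.87 without that mouse, and Apold1 was the 1 called gene of 24 endothelial markers. Nr4a1, a nuclear receptor switched on soon after cells are stimulated, had 8.91, 9.28 and 10.07 in sensitized lungs, against 10.01, 10.48 and 10.98 in naive lungs. The highest sensitized mouse lay within the naive range, and the fall was 1.09 ± 0.25 (adjusted p = 0.00363).

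Immediate early genes, which respond to stimulation before other genes do, fell in 5 of 18 cases and none rose, beside the 1.41% of all genes called lower, with a median of -0.33. The number was 4 without naive replicate 4, 4 without sensitized replicate 6 and 4 with the actin covariate. Fosl1, a subunit of the transcription factor AP-1, had 4.61, 4.81 and 5.16 in sensitized lungs, against 4.94, 5.15 and 8.16 in naive lungs. Naive replicates 4 and 8, at 8.16 and 7.87, stood far above the other naive mice. The fall was 0.94 ± 0.24 (adjusted p = 0.00981), a call lost without any 1 of naive replicates 4 and 8 (adjusted p = 0.0766 to 0.084) and with the actin covariate (adjusted p = 0.107). Egr3, a zinc finger transcription factor, fell by 0.74 ± 0.21 (adjusted p = 0.0233), with a second probe set at -0.10, a call lost without any 1 of sensitized replicates 1 and 6 and naive replicates 4 and 8 (adjusted p = 0.0539 to 0.0801) and with the covariate (adjusted p = 0.16). Ier3 fell by 0.28 ± 0.06 (adjusted p = 0.00175) and Ier2 by 0.38 ± 0.11 (adjusted p = 0.0195), the call of Ier2 being lost without any 1 of sensitized replicate 3 and naive replicate 2 (adjusted p = 0.0625 to 0.0746) and with the covariate (adjusted p = 0.119). Fitted on the 16 arrays alone, Fosl1 (adjusted p = 0.291), Egr3 (adjusted p = 0.083) and Ier3 (adjusted p = 0.0735) did not pass.

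Some genes of fibroblasts and matrix fell as well. Of 18 fibroblast markers 3 fell and none rose, beside 1.41% and 3.4% of all genes, with a median of -0.13. The number that fell was 4 without naive replicate 4 and 1 with the actin covariate. Dcn, the collagen-binding proteoglycan decorin, had 10.60, 11.34 and 11.68 in sensitized lungs, against 11.71, 12.02 and 12.48 in naive lungs. No value overlapped, and the fall was 0.85 ± 0.18 (adjusted p = 0.00146), with a second probe set at -0.38 and an adjusted p of 0.0542 with the covariate. Serpinf1, a secreted protein that restrains vessel growth, fell by 0.67 ± 0.13 (adjusted p = 0.000222). Lum, the related proteoglycan lumican, fell by 0.79 ± 0.25 (adjusted p = 0.0452), a call lost without any 1 of sensitized replicates 1, 2, 4, 5, 6 and 8 and naive replicates 1, 3, 4, 6 and 7 (adjusted p = 0.0547 to 0.117) and with the covariate (adjusted p = 0.16). Of 17 collagen genes 1 rose, Col8a1 (difference 0.39, adjusted p = 0.0363), and 1 fell, with a median of -0.06. Col12a1, the collagen that fell, which coats larger fibrils, differed by -0.71 ± 0.14 (adjusted p = 0.000437) with no overlap, and its highest naive value, 11.15, was replicate 4, with the next at 9.79. Another probe set of Col12a1 differed by -0.31. Of 23 matricellular and remodelling genes 1 rose, the macrophage elastase Mmp12, and 5 fell, with a median of -0.07. Mmp3, a matrix protease of fibroblasts, fell by 0.73 ± 0.17 (adjusted p = 0.00391) and did not pass with the covariate (adjusted p = 0.13). With the 16 arrays alone in the fit, Col12a1 (adjusted p = 0.0572) and Mmp3 (adjusted p = 0.0531) did not pass.

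Further genes fell without overlap. Pf4, the platelet chemokine, had 11.06, 11.19 and 11.27 in sensitized lungs, against 11.32, 11.50 and 12.04 in naive lungs, a fall of 0.42 ± 0.09 (adjusted p = 0.00146). All 8 sensitized mice were below the lowest naive mouse. Nqo1, a quinone reductase of the oxidative stress response, fell by 0.44 ± 0.12 (adjusted p = 0.0203), with sensitized mice at 9.27 to 9.53 and naive mice at 9.60 to 10.04.

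Of 17 circadian clock genes 3 rose and 1 fell, beside 3.4% and 1.41% of all genes, with a median of 0.20. In the clock, Arntl and Npas2 drive transcription and Dbp, Tef and Per3 peak at other hours. Dbp had 11.63, 11.98 and 12.66 in sensitized lungs, against 10.51, 11.64 and 12.18 in naive lungs, so the arms overlapped, and it rose by 0.65 ± 0.21 (adjusted p = 0.0436). Per3 rose by 0.47 ± 0.15 (adjusted p = 0.0453) and Tef by 0.31 ± 0.09 (adjusted p = 0.0294), against 0.071 by another probe set of Tef, while Arntl fell by 0.50 ± 0.15 (adjusted p = 0.0267). With the actin covariate none of the 17 clock genes passed (adjusted p = 0.509 for Dbp, 0.422 for Per3, 0.482 for Tef and 0.32 for Arntl). Without sensitized replicate 6 none passed either. Dbp lost its call without any 1 of sensitized replicates 1, 4, 5 and 6 and naive replicates 1, 4 and 8 (adjusted p = 0.0626 to 0.181), Per3 without any 1 of sensitized replicates 1, 2, 3, 4, 5, 6 and 7 and naive replicates 1, 2 and 4 (adjusted p = 0.0518 to 0.129), Tef without any 1 of sensitized replicates 1, 4 and 6 and naive replicates 1 and 4 (adjusted p = 0.0625 to 0.131), and Arntl without any 1 of sensitized replicates 1, 4 and 6 and naive replicate 1 (adjusted p = 0.0602 to 0.0999). The call was lost in the fit of the 16 arrays alone for Dbp (adjusted p = 0.152), Tef (adjusted p = 0.147) and Arntl (adjusted p = 0.0673). The hour of day at collection was not given in the sources used here.

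Of 13 glucocorticoid-responsive genes 1 rose, Zbtb16, and 1 fell, Sgk1 (difference -0.14, adjusted p = 0.0441), with a median of 0.06. Zbtb16, a transcription factor that glucocorticoids induce, had 9.79, 10.71 and 12.15 in sensitized lungs, against 8.86, 9.35 and 11.02 in naive lungs. The arms overlapped, and naive replicate 8 was above most sensitized mice. It rose by 1.22 ± 0.36 (adjusted p = 0.0287), against 0.58 by another probe set, a call lost without any 1 of sensitized replicates 1 and 6 and naive replicates 1, 4, 5 and 7 (adjusted p = 0.0538 to 0.112) and with the actin covariate (adjusted p = 0.132). Fam107a, which is not on that list, rose by 0.74 ± 0.21 (adjusted p = 0.0206), a call lost without any 1 of sensitized replicate 1 and naive replicates 1 and 4 (adjusted p = 0.0841 to 0.0895) and with the covariate (adjusted p = 0.177). Sensitized replicate 1 and naive replicate 8, the highest of their arms for Zbtb16 and Fam107a, also had the highest heat shock chaperone levels, at 12.88 and 12.93, where the medians of the sensitized and naive arms were 11.95 and 11.99. The part of those levels in the result was not tested. Fitted on the 16 arrays alone, Zbtb16 (adjusted p = 0.073) and Fam107a (adjusted p = 0.147) did not pass.

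**Figure D3:**
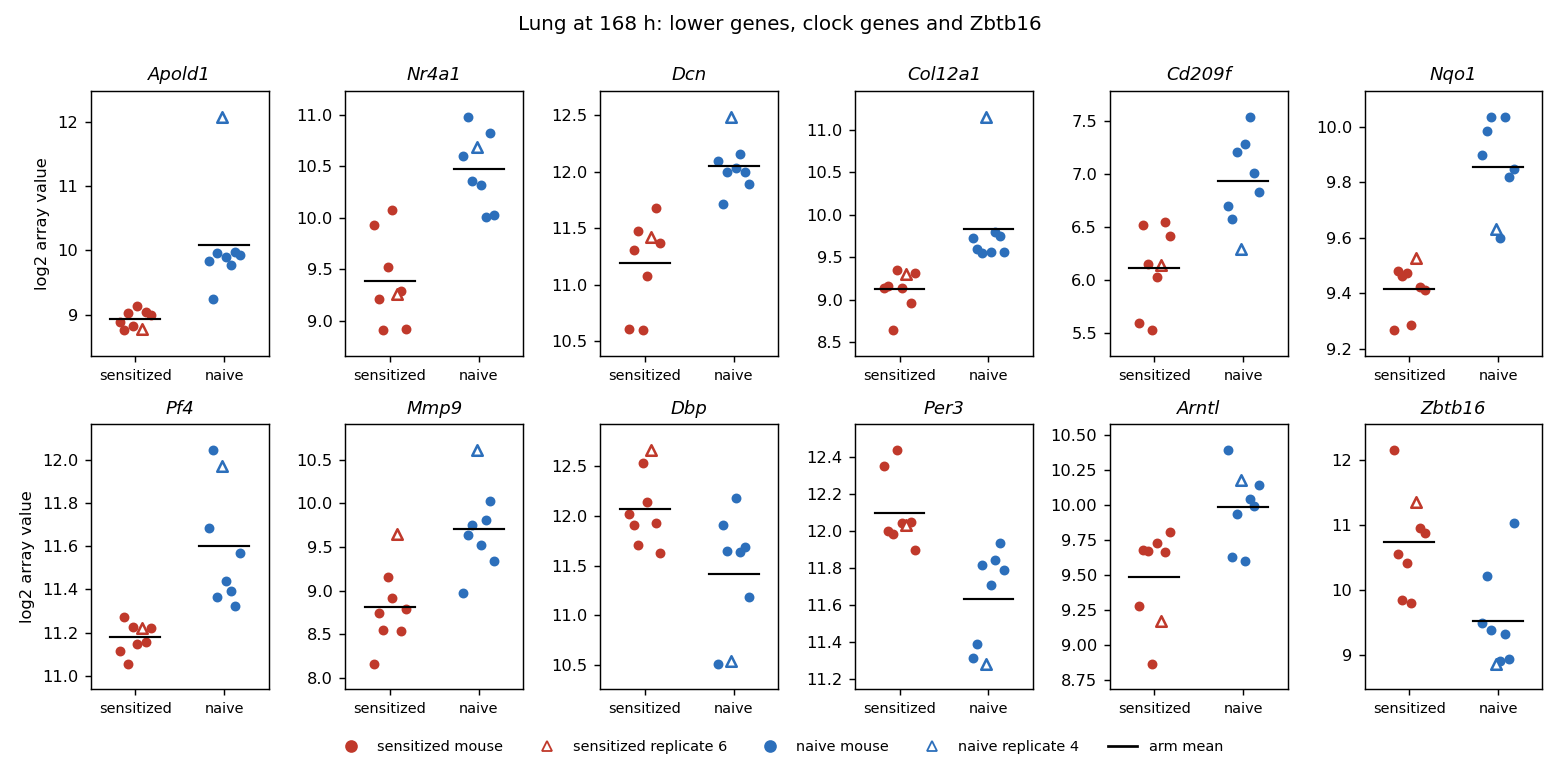
Log2 array value of 12 genes in each mouse at 168 h, sensitized mice left and naive mice right, with the arm mean as a line and open triangles for sensitized replicate 6 and naive replicate 4. Apold1, Dcn, Col12a1, Nqo1 and Pf4 do not overlap between arms, while Dbp, Arntl and Zbtb16 do.

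Set beside 96 h, most genes called at 168 h were also called then, with a larger difference. Of the 628 genes, 503 (80.1%) were also called at 96 h, which is 9.17% of the 5483 genes (42% of all) called there, and all 503 had the same direction. At 168 h 421 of them had the smaller difference, with a median of 69.0% of the 96 h value. The arm difference changed between the times in 892 genes (6.83%), 468 upward (3.59%) and 424 downward (3.25%), and 857 were nearer 0 at 168 h. The number that changed was 557 with sensitized replicate 4 left out, 489 with naive replicate 4 left out and 573 with naive replicate 2 left out. As a share of its 96 h log2 difference, Clca1 had 90.9%, Ccl17 83.4%, Chil3 82.7% and Igha 81.8%, whereas Muc5ac had 41.4% and Capn9, a calpain protease on the goblet cell list, 49.7%. All shares in this paragraph are of log2 differences and not of fold changes. For Clca1 the log2 change was -0.78 ± 0.83, which did not pass (adjusted p = 0.593). Its sensitized mean was 14.15 at 96 h and 13.16 at 168 h, and its naive values lay near the bottom of the scale.

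**Figure D4:**
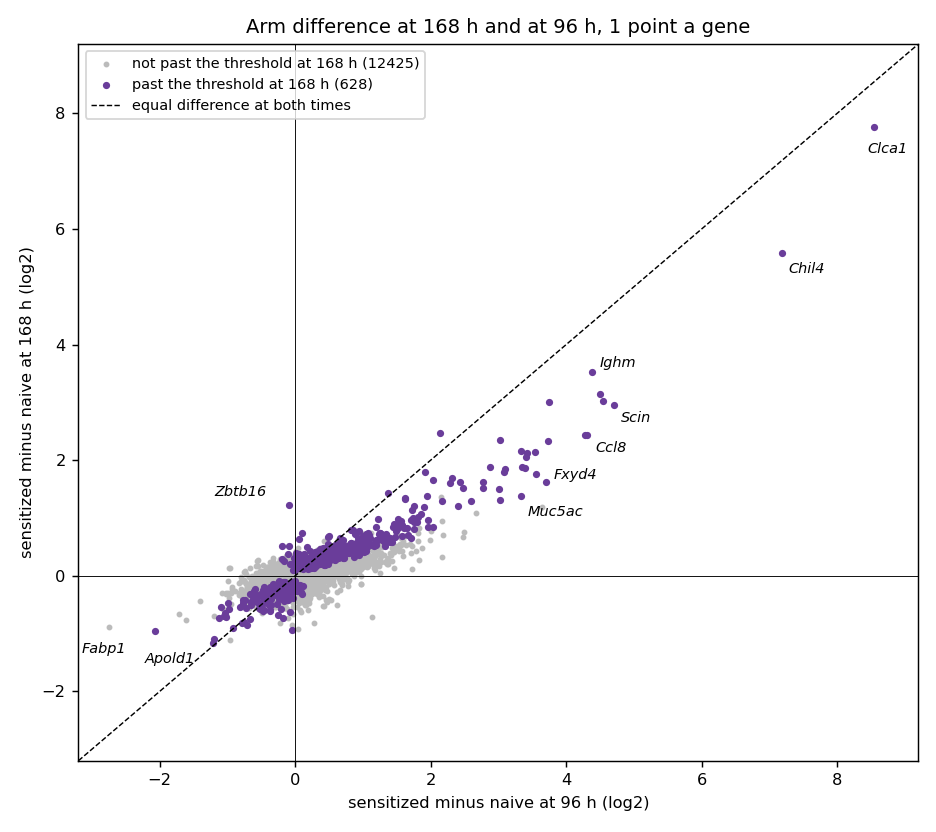
Difference, sensitized minus naive, in log2 units at 96 h (horizontal) and at 168 h (vertical), 1 point per gene, with the 628 genes called at 168 h in purple and a dashed line of equal differences. Most purple points lie between the dashed line and 0, with a median of 69.0% of the 96 h difference among those called at both times.

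Among genes past the threshold, the 6 with the largest downward change from 96 h were mucus, ion transport and chemokine genes. Cxcl3, a neutrophil chemokine, differed by 3.64 at 96 h and 1.18 at 168 h, a change of -2.45 ± 0.77 (adjusted p = 0.0378). Fxyd4 changed by -2.07 ± 0.67 (adjusted p = 0.0421), Muc5ac by -1.95 ± 0.45 (adjusted p = 0.00724), Ccl8 by -1.87 ± 0.53 (adjusted p = 0.0223), Ccl11 by -1.80 ± 0.52 (adjusted p = 0.0256) and Capn9 by -1.79 ± 0.48 (adjusted p = 0.0174). Naive replicate 4 had the highest value of its arm for Cxcl3, Fxyd4, Ccl8 and Ccl11, and without it none of these 4 changes passed. Calls were lost for Ccl8 without naive replicate 4 (adjusted p = 0.0526), for Ccl11 without any 1 of sensitized replicate 4 and naive replicate 4 (adjusted p = 0.0526 to 0.0558), for Cxcl3 without any 1 of sensitized replicates 1, 4 and 8 and naive replicate 4 (adjusted p = 0.052 to 0.0835) and for Fxyd4 without any 1 of sensitized replicates 1, 4, 6 and 8 and naive replicates 4 and 5 (adjusted p = 0.0527 to 0.091). The same 4 did not pass with the actin covariate (adjusted p = 0.0851 for Ccl8, 0.159 for Ccl11, 0.104 for Cxcl3 and 0.129 for Fxyd4).

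In the other direction, Fabp1, a fatty acid carrier, differed by -2.75 at 96 h and -0.88 at 168 h, a change of 1.86 ± 0.48 (adjusted p = 0.0142). Dach1, a transcription cofactor, changed by 0.83 ± 0.20 (adjusted p = 0.01), Edil3, a matrix protein, by 0.82 ± 0.20 (adjusted p = 0.00988), and 9530026P05Rik by 1.09 ± 0.27 (adjusted p = 0.0103), the last of which did not pass with the actin covariate (adjusted p = 0.0682). C1qtnf3, a secreted relative of complement C1q, changed by 1.12 ± 0.35 (adjusted p = 0.0368) and lost the call without any 1 of sensitized replicates 5 and 8 and naive replicates 2 and 4 (adjusted p = 0.0521 to 0.0697). Ces2b, a carboxylesterase, changed by 0.81 ± 0.26 (adjusted p = 0.0423) and lost the call without any 1 of sensitized replicates 2, 3, 6 and 8 and naive replicates 4 and 6 (adjusted p = 0.0514 to 0.114) and with the covariate (adjusted p = 0.118). Naive replicate 4 had the lowest value of its arm for all of these but Dach1. None of these 6 genes passed in the comparison of the arms at 168 h (adjusted p = 0.109 for Fabp1 and 0.485 or above for the others).

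Lists can be set side by side at the 3 times, which use separate mice. At 0 h 14.2% of all genes were called higher and 12.3% lower, and at 96 h 21.2% and 20.8%. Cell cycle genes were higher in 26 of 26 cases at 0 h, in 25 at 96 h and in none at 168 h (2 at an unadjusted p below 0.05), where the median was 0.17 and 24 members lay above 0. Of the 26, 21 changed downward from 96 h. Naive replicate 4 had a mean of 9.09, against 7.85 to 8.67 in the other naive mice, and without it the median was 0.28 and 1 gene passed. Alveolar type I markers were lower in 5 of 15 cases at 0 h, in 13 at 96 h and in none at 168 h, and 7 changed upward from 96 h. Goblet cell genes were higher in 22, 24 and 18 of 25 cases at 0, 96 and 168 h, and 11 changed downward from 96 h. Plasma cell genes were higher in 10, 17 and 12 of 19 cases, and endoplasmic reticulum chaperones in 2, 15 and 9 of 20.

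Of the 628 genes called at 168 h, 288 (45.9%) were also called at 0 h, which is 8.33% of the 3457 genes (26.5% of all) called there, and 280 of them had the same direction. The arm difference changed from 0 h in 253 genes (1.94%), 126 upward (0.965%) and 127 downward (0.973%). That number moved with single mice. Leaving out sensitized replicate 1 gave 114 and sensitized replicate 6 gave 154, while leaving out naive replicate 1 gave 124, naive replicate 2 gave 157, naive replicate 4 gave 117 and naive replicate 8 gave 421. It was 449 without 7 arrays of the series with high squamous epithelium or skeletal muscle scores, 2 of them at 0 h and none at 168 h. At 0 h, sensitized lungs were lower in 6 of 9 adipocyte, 4 of 12 skeletal muscle and 1 of 13 squamous epithelium markers. The medians of these lists at 0 h were -1.16, -1.31 and -1.45, and 12.3% of all genes were called lower there. Changes of named genes from 0 h are given for all arrays, and the part of such tissue in them was not tested.

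**Figure D5:**
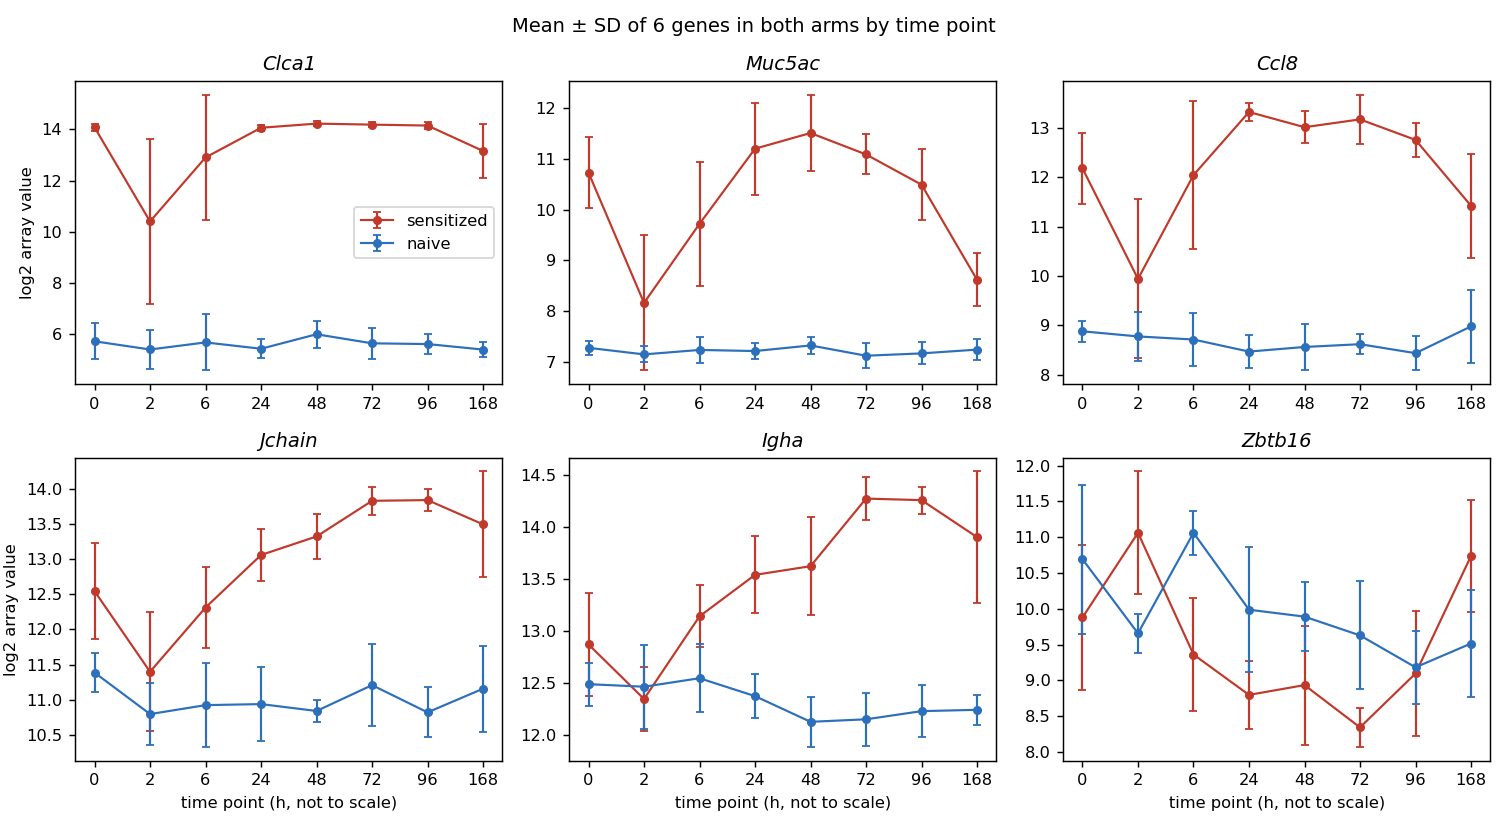
Mean ± SD of the log2 array value (vertical) of 6 genes in sensitized (red) and naive (blue) lungs at the 8 time points from 0 to 168 h, drawn at even spacing and not to scale. In sensitized lungs Muc5ac averages 10.73 at 0 h and 8.62 at 168 h, while Igha averages 12.87 at 0 h and 13.90 at 168 h.

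Of 25 goblet cell and mucus genes 2, Muc5ac and Capn9, had a difference that changed downward from 0 h, and 0 changed upward. Clca1 changed by -0.60 ± 0.81 (adjusted p = 0.718) and Muc5b by -0.28 ± 0.45 (adjusted p = 0.765), which did not pass. Muc5ac averaged 10.73 ± 0.70 at 0 h and 8.62 ± 0.52 at 168 h in sensitized lungs, against 7.28 ± 0.14 and 7.24 ± 0.21 in naive lungs (SD, n = 8 each). The naive means differed by less than their SDs, and the arm difference changed by -2.08 ± 0.44 (adjusted p = 0.00676). Capn9 changed by -2.07 ± 0.47 (adjusted p = 0.0122). Retnlb, a hormone-like goblet cell protein outside that list, rose by 1.31 ± 0.37 (adjusted p = 0.0207) at 168 h, a call lost without sensitized replicate 1 (adjusted p = 0.0731). Its difference changed by -1.82 ± 0.52 (adjusted p = 0.0435) from 0 h, a call lost without any 1 of sensitized replicates 4, 6 and 8 and naive replicates 1, 2, 3 and 4 (adjusted p = 0.0503 to 0.0884) and with the actin covariate (adjusted p = 0.0758). Cenpe, a mitotic motor, changed by -0.87 ± 0.24 (adjusted p = 0.0388), a call lost without any 1 of sensitized replicates 1, 2, 6 and 8 and naive replicate 4 (adjusted p = 0.0557 to 0.0885) and with the covariate (adjusted p = 0.0755).

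The few genes of antibody secretion that passed moved the opposite way. The change from 0 h was upward in 2 of 19 plasma cell genes, 1 of 3 immunoglobulin chain genes and 1 of 20 endoplasmic reticulum chaperones. None changed downward, and 0.965% of all genes changed upward. Ighm changed by 0.88 ± 0.71, which did not pass (adjusted p = 0.508). Igha averaged 12.87 ± 0.50 at 0 h and 13.90 ± 0.63 at 168 h in sensitized lungs, against 12.49 ± 0.21 and 12.24 ± 0.14 in naive lungs (SD, n = 8 each). The arm difference was 0.38 at 0 h (adjusted p = 0.0751) and changed by 1.28 ± 0.24 (adjusted p = 0.00124). Derl3 changed by 1.14 ± 0.30 (adjusted p = 0.0294), a call lost without sensitized replicate 3 (adjusted p = 0.0555). Jchain changed by 1.18 ± 0.36, which did not pass (adjusted p = 0.0596). Oosp1, which is not on the plasma cell list, changed by 1.37 ± 0.30 (adjusted p = 0.00922). At 168 h Oosp1 was 5.69 to 8.54 in sensitized lungs and 5.49 to 5.68 in naive lungs, with no overlap and a difference of 1.80 ± 0.21 (adjusted p = 2.25e-10).

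Stress and clock genes were among the rest. Within an arm, 2.83% of genes were higher and 3.3% lower at 168 h than at 0 h in sensitized mice (6.13% in all), and 0.199% and 0.192% in naive mice (0.391% in all). Zbtb16 changed by 2.04 ± 0.51 (adjusted p = 0.0211), a call lost without sensitized replicate 1 (adjusted p = 0.0552), and its difference at 0 h was -0.81 (adjusted p = 0.0815). Fam107a changed by 1.61 ± 0.30 (adjusted p = 0.00124), with 0.78 in sensitized mice (adjusted p = 0.0133) and -0.83 in naive mice (adjusted p = 0.0413) from 0 h to 168 h. Map3k6, a stress kinase, changed by 0.98 ± 0.20 (adjusted p = 0.00469), with 0.30 in sensitized mice (adjusted p = 0.197) and -0.68 in naive mice (adjusted p = 0.00305). Npas2 changed by -1.1 ± 0.26 (adjusted p = 0.0173), with 0.09 in sensitized mice (adjusted p = 0.841) and 1.18 in naive mice (adjusted p = 3.58e-05), and the arms did not pass at 168 h (difference -0.49, adjusted p = 0.107). Egr3 changed by -1.02 ± 0.30 (adjusted p = 0.0486), a call lost without any 1 of sensitized replicates 1, 2, 6, 7 and 8 and naive replicates 1, 3, 4 and 8 (adjusted p = 0.0508 to 0.114) and with the actin covariate (adjusted p = 0.108).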

How the data were processed

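Whole lung RNA of each mouse was labelled with a 3′ in vitro transcription kit and hybridised to 1 array, per the labels' protocols, which state an RNA integrity number above 6. The authors deposited log2 values for every probe set, and RMA is the method that the submitters' processing notes name. Its version, and the filter behind the table, in which every probe set reaches at least 7.03 on some array, are not stated in the notes or labels. There were 25697 probe sets. A single gene symbol belonged to 22478, while 259 with more than 1 were dropped, 2950 had none listed here and 10 were controls. Where a gene had several, the one of highest mean signal in the series was used, which gave 13053 genes.

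Means of the 16 groups of arm and time were fitted on all arrays of the series with limma 3.58.1 in R 4.3.3 (lmFit, contrasts.fit and eBayes, 107 residual degrees of freedom), with Benjamini-Hochberg adjustment over all genes and a threshold of 0.05; every adjusted p in the text is limma's. Changes of the arm difference were interaction contrasts in that fit. The design, planned for the same unit, was used as written. The fit was tested on simulated normal values with 1 spread per gene, 200 genes being changed at 168 h by 1 or 2. For the comparison at 168 h it recovered 99% of changes of 1 and 100% of changes of 2, with 11 false calls. The simulation held no outlying arrays, so it does not cover mice such as naive replicate 4. Tables and plots used Python 3.11.15, numpy 2.4.6, pandas 2.3.3, scipy 1.17.1 (exact permutation test) and matplotlib 3.10.9.

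Named genes were the 15 highest and 12 lowest past the threshold at 168 h, up to 4 members of each gene list by size of difference, the 6 highest and 6 lowest past the threshold in each interaction contrast, and other list members beside their counts. Col8a1, Krt19 and Sgk1 were named after their values were seen. Members and lists were chosen with earlier results of these data known. Some genes are on several lists, so the counts of different lists share members. Alternatives were the mean of all probe sets, a filter on the mean, median centring, quantile normalization, array weights, limma-trend with robust eBayes, the 16 arrays alone, arrays with neighbouring tissue left out, each mouse left out, and, chosen after seeing the data, the actin 3′ minus 5′ difference as a covariate. Promoter windows came from RefSeq on GRCm38.p6.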

Additional observations from a re-analysis of the deposited data

Results flagged for a closer look

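In 42 of 224 groups of 8 log2 values at 168 h, 1 mouse stood further from its group than Dixon's 95% critical value allows; chance does so in about 1 of 20 groups. The value of that mouse is given with that of the nearest other mouse. Sensitized replicate 6 was the lowest of its arm, beyond that value, for Clca1 (10.66, next 12.92), Chil4 (7.07, next 11.21), Ighm (13.27, next 14.32), Gcnt3 (5.48, next 7.83), Scin (6.48, next 8.78), AA467197 (7.50, next 9.22), Jchain (11.72, next 13.30), Chil3 (13.02, next 13.75) and Chia1 (12.41, next 13.10). Sensitized replicate 6 was the highest of its arm, beyond that value, for 9530026P05Rik (9.39, next 8.97). Sensitized replicate 4 was the lowest of its arm, beyond that value, for Mmp3 (8.48, next 9.23). Sensitized replicate 5 was the lowest of its arm, beyond that value, for Tff2 (9.21, next 10.27). Sensitized replicate 3 was the highest of its arm, beyond that value, for Xbp1 (12.81, next 12.66). Sensitized replicate 1 was the highest of its arm, beyond that value, for Herpud1 (12.73, next 12.33). Naive replicate 4 was the highest of its arm, beyond that value, for Slc26a4 (10.65, next 8.73), AA467197 (10.90, next 6.89), Mmp12 (12.75, next 9.55), Apold1 (12.08, next 9.97), Col12a1 (11.15, next 9.79), Fxyd4 (8.96, next 7.17), Chil1 (13.72, next 13.46), Edem1 (10.43, next 9.98), Cxcl3 (7.89, next 5.78), Itgax (11.58, next 10.86), Kcne3 (9.23, next 8.42), C1qb (13.51, next 12.76), Retnlb (6.39, next 5.61), Ctss (13.58, next 13.09) and Cd200r1 (9.03, next 8.00). Naive replicate 4 was the lowest of its arm, beyond that value, for Pon1 (10.78, next 11.66), Cd209g (6.75, next 7.43), Chia1 (11.12, next 12.02), Tef (11.84, next 12.29), Lypd2 (9.55, next 10.51), Fabp1 (9.76, next 10.88), 9530026P05Rik (7.86, next 8.65) and Ces2b (6.67, next 7.56). Naive replicate 8 was the highest of its arm, beyond that value, for Cd209e (5.49, next 5.05) and Il13 (6.99, next 6.56). Naive replicate 8 was the lowest of its arm, beyond that value, for Muc5b (9.32, next 10.31). Naive replicate 6 was the highest of its arm, beyond that value, for Pigr (10.50, next 10.24). Naive replicate 2 was the highest of its arm, beyond that value, for Ier3 (13.27, next 13).

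The difference between sensitized and naive lungs changed between times, by limma's interaction contrast, for the following named genes. From 0 h to 168 h the log2 changes were Egr3 (-1.02, adjusted p = 0.0486), Muc5ac (-2.08, adjusted p = 0.00676), Capn9 (-2.07, adjusted p = 0.0122), Derl3 (1.14, adjusted p = 0.0294), Igha (1.28, adjusted p = 0.00124), Zbtb16 (2.04, adjusted p = 0.0211), Fam107a (1.61, adjusted p = 0.00124), Oosp1 (1.37, adjusted p = 0.00922), Map3k6 (0.98, adjusted p = 0.00469), Retnlb (-1.82, adjusted p = 0.0435), Npas2 (-1.1, adjusted p = 0.0173) and Cenpe (-0.87, adjusted p = 0.0388). From 96 h to 168 h they were Ccl8 (-1.87, adjusted p = 0.0223), Muc5ac (-1.95, adjusted p = 0.00724), Capn9 (-1.79, adjusted p = 0.0174), Fxyd4 (-2.07, adjusted p = 0.0421), Ccl11 (-1.80, adjusted p = 0.0256), Cxcl3 (-2.45, adjusted p = 0.0378), Fabp1 (1.86, adjusted p = 0.0142), C1qtnf3 (1.12, adjusted p = 0.0368), 9530026P05Rik (1.09, adjusted p = 0.0103), Dach1 (0.83, adjusted p = 0.01), Edil3 (0.82, adjusted p = 0.00988) and Ces2b (0.81, adjusted p = 0.0423).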

How the results depend on the processing

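The 628 genes called at 168 h became 1570 with array weights and 362 with the 16 arrays alone, and ranged from 364 to 776 with single mice left out. The 253 genes that changed from 0 h became 453 with array weights and 449 without arrays of neighbouring tissue (114 to 421 with single mice left out), and the 892 that changed from 96 h became 1573 with array weights (489 to 1087). The actin difference stayed at 0.23 to 0.32. The other alternatives kept each number within 1.5 times, and the cause of the moves was not tested. Of 94 named genes called at 168 h, 53 kept the call in all 9 other settings and 67 without each of the 16 mice, and none turned its sign. The actin covariate ended 25 of these calls, the fit of the 16 arrays alone 22, and leaving out sensitized replicate 1 ended 17. Among named genes not called at 168 h, the difference of Ccl24 turned to 0.11 with the covariate, that of C1qtnf3 to -0.031 with array weights, and that of 9530026P05Rik to -0.042 with array weights and -0.17 with the covariate. Edil3 turned to -0.017 with the mean of probe sets, -0.20 with array weights and -0.051 with the covariate, and ranged from -0.11 without naive replicate 4 to 0.12 without naive replicate 7. No paired analysis was possible because replicate numbers follow accession order. Low values near the bottom of the scale limit what differences there can show.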
